A study of Mus musculus with 7 samples.

Results

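Bergmann glia are the radial astroglia of the cerebellar molecular layer, whose processes wrap Purkinje cell dendrites and synapses, and the remaining cerebellar astrocytes lie among granule cells and in white matter. Both clear glutamate and potassium, carry water and ions between neurons and vessels, and share metabolites through gap junctions. The 32 genes described here are markers of these cells, listed by symbol with genes of reactive gliosis left out. All 32 were found among the 24421 gene symbols counted in each library, and all 32 passed the filter on low counts, which kept 16905 genes.

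RNA from whole cerebellum of C57BL/6 mice was sequenced in 4 CicKO libraries, from animals carrying En1-Cre and 2 floxed Cic alleles, and in 3 control libraries, titled wild type, whose genotype field gives 1 floxed and 1 intact Cic allele and names no Cre. Cic encodes a transcriptional repressor that forms a complex with ATXN1, and En1-Cre recombines in cells descended from the embryonic midbrain and hindbrain. Cre and loss of Cic cannot be told apart in this design, and age, sex and litter are not stated in the labels. The labels do not say outright that each library came from its own animal, so p-values measure the spread between these libraries.

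Libraries held 102653765 to 121285349 gene counts. Cic lay between 144 and 147 CPM (counts scaled to library size with TMM factors) in CicKO, against 216 to 257 CPM in controls. CicKO 3 and control 3 stood apart from the other libraries: 10 choroid plexus markers summed to 8602 CPM in CicKO 3 and 46.6 to 130 CPM in the other CicKO libraries, and to 6212 CPM in control 3 against 75.2 and 145 CPM in the other controls. Reads assigned to no annotated gene made up 18.6 ± 0.340% of entries in CicKO (SD, n = 4) and 17.0 ± 1.36% in controls (SD, n = 3), and this percentage was used as an unassigned-read covariate in an alternative fit. It ran from 18.2% to 19.0% in CicKO, and was 16.0%, 18.6% and 16.5% in controls 1 to 3. Only control 2 lay in the CicKO range, so this covariate and genotype cannot be fully told apart.

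Some astroglial genes were called lower in CicKO cerebellum. Whether the others shared a smaller decrease was not tested. Of the 32 genes, 5 were called lower (Gdf10, Agt, Aqp4, Ndrg2 and Mfge8) and 0 higher, in edgeR's quasi-likelihood test at a Benjamini-Hochberg adjusted p below 0.05 over all 16905 genes, of which 0.828% were called lower and 1.25% higher. At an unadjusted p below 0.05, 11 of the 32 were lower, beside 8.16% of all genes, and 0 higher, beside 8.06%. DESeq2 called 8 of the 32 lower and 0 higher, where it called 2.92% of all its genes lower and 3.95% higher. Every CicKO library lay below every control library for 10 of the 32 and above for 0, beside 8.36% and 7.06% of all genes. The members were chosen with earlier results of these data known, so the counts beside these shares are a description only. The median log2 fold change (CicKO over control) was -0.13 over the 32 genes, which ran from -0.70 to 0.29, and -0.00441 over all genes tested. Alternative fits named below used library size only in place of TMM, or the replicate number as a block, a fit that leaves out CicKO 4 because it has no partner. In whole tissue, fewer cells of a type and less RNA per cell cannot be told apart.

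**Figure D1:**
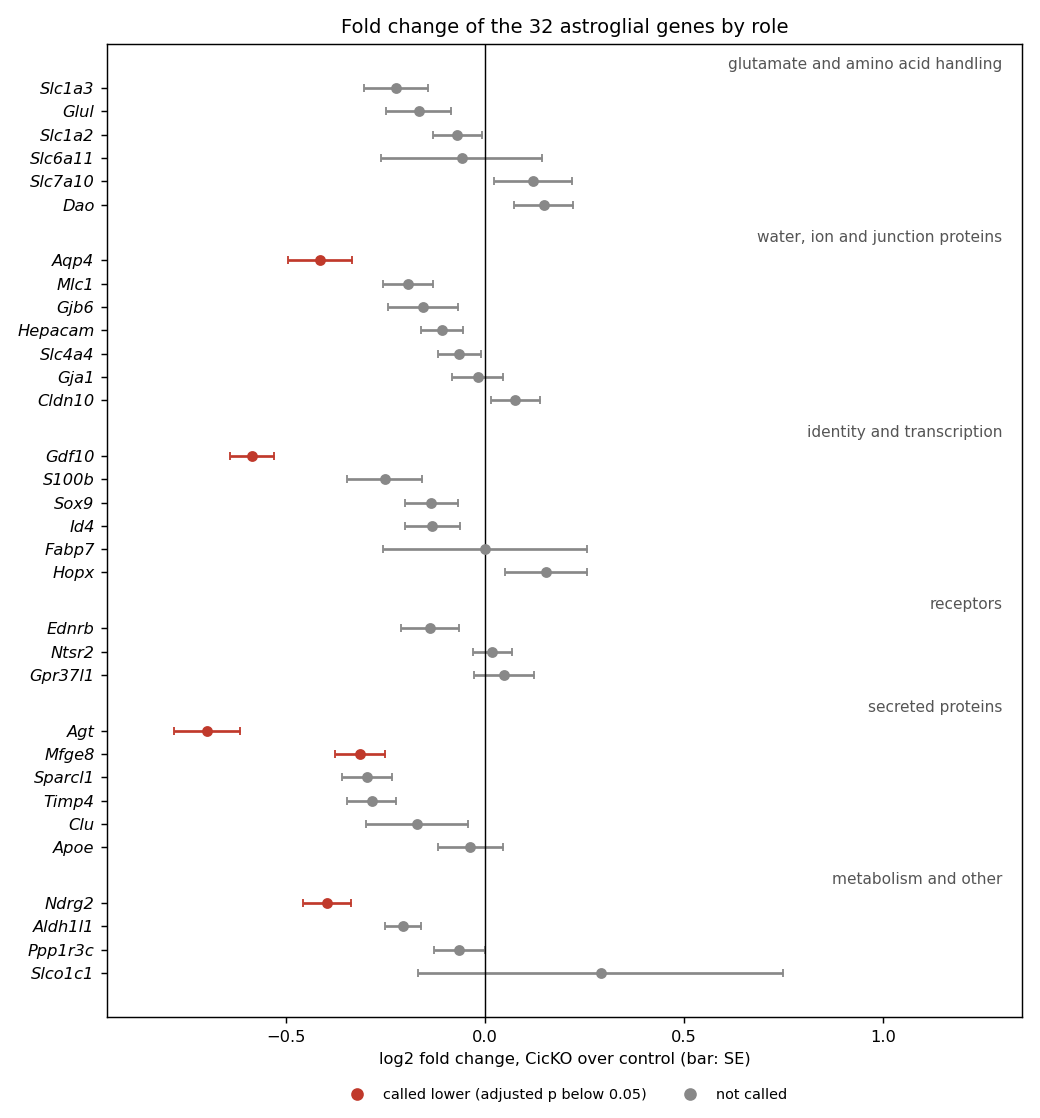
Log2 fold change of each of the 32 astroglial genes, CicKO over control (points, with bars for the standard error), grouped by role, with the 5 genes called lower in red. Agt (-0.70) and Gdf10 (-0.59) lay farthest below 0, and 8 genes lay above 0 without being called, Slco1c1 farthest (0.29).

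The calls of Gdf10 and Agt were the only ones among the 5 that no single omitted library ended, and the 250 bases before their RefSeq start sites (GRCm38.p6) are shown for that reason. Capitals mark the letters TATAAA on either strand.

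Gdf10, chr14:33923337-33923586, plus strand: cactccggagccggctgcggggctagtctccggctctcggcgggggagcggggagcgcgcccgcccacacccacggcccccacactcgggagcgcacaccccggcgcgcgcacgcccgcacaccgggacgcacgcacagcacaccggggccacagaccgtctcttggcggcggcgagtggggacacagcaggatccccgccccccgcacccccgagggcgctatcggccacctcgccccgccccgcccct
Agt, chr8:124569707-124569956, minus strand: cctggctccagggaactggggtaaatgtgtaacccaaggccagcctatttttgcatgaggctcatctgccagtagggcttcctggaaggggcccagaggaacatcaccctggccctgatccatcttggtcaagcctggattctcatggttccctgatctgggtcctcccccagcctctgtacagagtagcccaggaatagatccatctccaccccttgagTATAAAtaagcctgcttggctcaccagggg

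The promoter of Gdf10 was 78.8% G and C and held no TATAAA, whereas that of Agt was 55.6% G and C and held TATAAA beginning at position -30 from the start site. Of the 32 genes, 28 had a RefSeq promoter window, and 4 of those (Agt, Apoe, Ndrg2 and Slc1a3) held TATAAA on either strand in the 250 bases, against 14.3% of all 27025 genes with a window. Aqp4, which was called lower, and Sparcl1, Clu and Sox9 had no window and were not searched. The octamers known to be bound by CIC, TGAATGAA, TGAATGGA, TCAATGAA and TCAATGGA, were searched on both strands, and none of the 4 is contained in another. They occurred in 0 of the 28, and in 1.25%, 1.18%, 0.755% and 0.611% of all genes with a window. The letters are a description of this window only.

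Among genes that mark astroglial identity or act in the nucleus, Gdf10 fell. Gdf10, a secreted member of the TGF-beta family used as a marker of Bergmann glia (ENSMUSG00000021943.7, chromosome 14, 33923587 to 33937983), was at 163, 152, 153 and 151 CPM in CicKO 1 to 4, against 242, 215 and 240 CPM in controls 1 to 3. The groups did not overlap, and the CicKO libraries were close to each other. The log2 fold change was -0.59 (SE 0.0555, adjusted p = 0.00256), a level 33.4% lower on the fitted scale. With the unassigned-read covariate Gdf10 was the one member still called (adjusted p = 0.0323).

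The other markers in this group were not called. Hopx, a homeodomain protein of Bergmann glia, was at 130, 153, 116 and 157 CPM in CicKO 1 to 4 and 128, 120 and 127 CPM in controls 1 to 3, with overlapping groups (log2 fold change 0.15, SE 0.103, adjusted p = 0.518). Fabp7, the brain lipid-binding protein, averaged 20.2 ± 6.16 CPM in CicKO and 20.2 ± 3.10 CPM in controls, and its lowest value of all libraries, 11.97 CPM, was in CicKO 3. S100b, a calcium-binding protein of astroglia, was at 489, 558, 410 and 496 CPM in CicKO 1 to 4, against 586, 575 and 585 CPM in controls 1 to 3. The S100b groups did not overlap, with CicKO 3 lowest, and the gene was not called (log2 fold change -0.25, SE 0.0953, adjusted p = 0.242). The transcription factor Sox9, which specifies glia, and Id4, an inhibitor of basic helix-loop-helix factors, had log2 fold changes of -0.14 and -0.13 and overlapping groups (adjusted p = 0.362 and 0.396).

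Secreted products of astroglia included the largest decrease of the 32, that of Agt. Agt, the angiotensinogen precursor of angiotensin peptides, which astrocytes make in brain (ENSMUSG00000031980.9, chromosome 8, 124556534 to 124569706), was at 62.7, 54.5, 60.3 and 49.6 CPM in CicKO 1 to 4, against 99.1, 88.3 and 89.2 CPM in controls 1 to 3. Each CicKO library was well below each control. Its log2 fold change was -0.70 (SE 0.0838, adjusted p = 0.00694). The unassigned-read covariate ended its call (log2 fold change -0.61, adjusted p = 0.122).

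Mfge8, a bridging protein that marks dying cells and debris for uptake by phagocytes (ENSMUSG00000030605.15, chromosome 7, 79133768 to 79149060), was at 45.4, 47.4, 52.7 and 47.5 CPM in CicKO 1 to 4, against 60.5, 62.3 and 57.1 CPM in controls 1 to 3. The groups were separate, by a smaller margin than for Agt. The log2 fold change was -0.31 (SE 0.0621, adjusted p = 0.0445). This call was near the threshold: it was lost with library size only (adjusted p = 0.0574), with the replicate block (0.0611), with the unassigned-read covariate (0.156), and without CicKO 1 (0.119), CicKO 2 (0.121), CicKO 4 (0.123), control 1 (0.167), control 2 (0.0714) or control 3 (0.0972). Its log2 fold change was then -0.32 with library size only, -0.31 with the block, -0.39 with the covariate, and between -0.36 and -0.29 over all single omissions.

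Sparcl1, a matricellular protein that promotes synapse formation and the most abundant of the 32 per length, was at 2026, 2062, 2048 and 1914 CPM in CicKO 1 to 4, against 2400, 2422 and 2600 CPM in controls 1 to 3. All CicKO libraries were below all controls, and the gene was not called with all libraries (log2 fold change -0.30, SE 0.0628, adjusted p = 0.0559) but passed without CicKO 3 (0.0230) and in DESeq2 (3.96e-06). Timp4, an inhibitor of matrix metalloproteinases, was at 161, 153, 137 and 158 CPM in CicKO 1 to 4, against 193, 178 and 186 CPM in controls 1 to 3. The Timp4 groups were also separate (log2 fold change -0.29, SE 0.0617, adjusted p = 0.0609), and it passed with the replicate block (0.0423), with library size only (0.0425), without CicKO 3 (0.0284) and in DESeq2 (0.00249). The apolipoproteins Apoe and Clu overlapped between groups. Apoe averaged 1125 ± 64.6 CPM in CicKO and 1154 ± 106 CPM in controls, and Clu, which carries lipid and acts as an extracellular chaperone, 520 ± 83.5 and 586 ± 66.8 CPM. Clu was highest in its group in CicKO 3 (643 CPM) and control 3 (660 CPM), the libraries high in choroid plexus transcripts, and the part of those transcripts in its level was not tested.

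**Figure D2:**
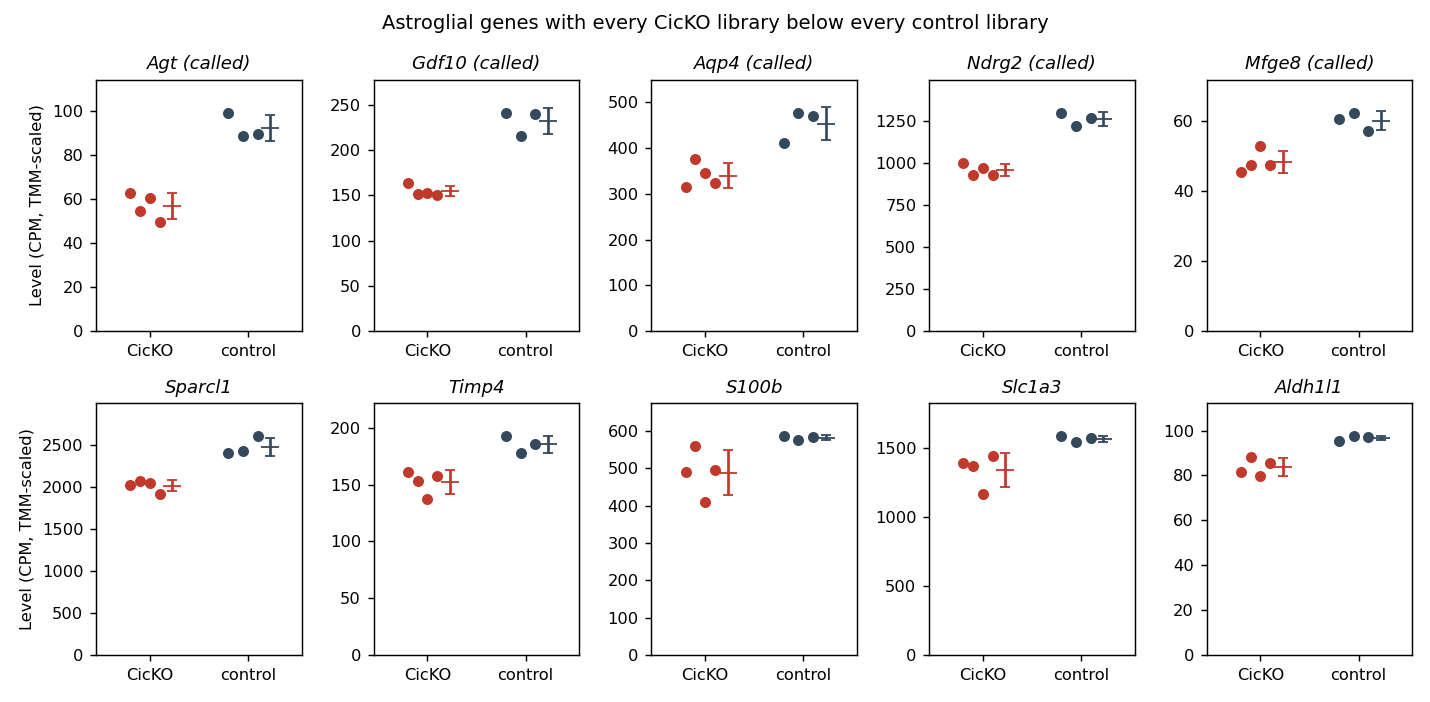
Level in CPM of the 10 astroglial genes whose CicKO libraries (red points) all lay below the control libraries (dark points), each axis starting at 0, with the group mean and SD beside the points. The 5 called genes are named as such, and CicKO 3 was the lowest library for S100b (410 CPM), Slc1a3 (1163 CPM), Timp4 (137 CPM) and Aldh1l1 (79.6 CPM).

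Among proteins of water, ion and junctional transport, Aqp4 was lower. Aqp4, the water channel of astrocyte endfeet (ENSMUSG00000024411.10, chromosome 18, 15389496 to 15410982), was at 314, 375, 345 and 323 CPM in CicKO 1 to 4, against 411, 477 and 469 CPM in controls 1 to 3. The highest CicKO library was below the lowest control. The log2 fold change was -0.42 (SE 0.0801, adjusted p = 0.0408). The call was lost without CicKO 1 (0.116), CicKO 4 (0.123), control 1 (0.0706), control 2 (0.0657) or control 3 (0.164), without both CicKO 3 and control 3 (0.0950), and with the unassigned-read covariate (0.166). In these fits Aqp4 had a log2 fold change of -0.50 with the covariate, -0.40 without both, and between -0.47 and -0.38 over all single omissions.

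The partners of Aqp4 at the endfoot and the gap junction genes were not called. Mlc1, a membrane protein of perivascular astroglial contacts, was at 167, 178, 168 and 175 CPM in CicKO 1 to 4 and at 203, 177 and 210 CPM in controls 1 to 3, where control 2 fell inside the CicKO range. Its log2 fold change was -0.19 (SE 0.0637, adjusted p = 0.183), and it passed without control 2 (0.0332). Hepacam, the adhesion molecule that carries Mlc1 to junctions, had -0.11 (SE 0.0524, adjusted p = 0.351). The astrocytic connexins Gja1 and Gjb6 had -0.02 (SE 0.0649) and -0.16 (SE 0.0880), the bicarbonate cotransporter Slc4a4 -0.07 (SE 0.0537) and the claudin Cldn10 0.08 (SE 0.0628), with adjusted p between 0.432 and 0.916.

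Genes of glutamate uptake and amino acid turnover showed 0 calls among 6, where 0.828% of all genes were called lower and 1.25% higher. Slc1a3, the glutamate transporter that predominates in Bergmann glia, was at 1385, 1369, 1163 and 1438 CPM in CicKO 1 to 4, against 1582, 1538 and 1569 CPM in controls 1 to 3. Groups did not overlap, yet the spread among CicKO libraries was wide, and it was not called (log2 fold change -0.22, SE 0.0810, adjusted p = 0.223). Slc1a2, the other astroglial glutamate transporter listed, averaged 827 ± 24.7 CPM in CicKO and 868 ± 47.3 CPM in controls (adjusted p = 0.624). Glul, the synthetase that turns glutamate into glutamine, averaged 949 ± 51.6 and 1066 ± 103 CPM in CicKO and controls (adjusted p = 0.364).

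The remaining members of this group had lower levels and overlapping groups. Slc6a11, a GABA transporter, had 54.0, 72.8, 87.7 and 52.9 CPM in CicKO 1 to 4 and 67.5, 59.6 and 81.8 CPM in controls 1 to 3, highest in library 3 of each group. Dao, the oxidase that degrades D-serine in cerebellar astroglia, and Slc7a10, a transporter of glycine and D-serine, had positive log2 fold changes of 0.15 (SE 0.0747) and 0.12 (SE 0.0981), neither called (adjusted p = 0.384 and 0.595).

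None of the 3 receptors was called, where 0.828% of all genes were called lower and 1.25% higher. Gpr37l1, an orphan receptor abundant in Bergmann glia, averaged 630 ± 50.9 CPM in CicKO and 610 ± 25.7 CPM in controls, and Ntsr2, a neurotensin receptor, 100 ± 3.83 and 98.9 ± 4.61 CPM. Ednrb, the endothelin receptor of astroglia, averaged 121 ± 9.80 CPM in CicKO and 133 ± 9.04 CPM in controls (log2 fold change -0.14, SE 0.0733, adjusted p = 0.400).

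Of the metabolic and other genes Ndrg2 fell. Ndrg2, an astrocytic member of the N-myc downstream-regulated family (ENSMUSG00000004558.15, chromosome 14, 51905271 to 51914158), was at 1002, 929, 972 and 927 CPM in CicKO 1 to 4, against 1300, 1218 and 1269 CPM in controls 1 to 3. The groups were far apart relative to their spread. The log2 fold change was -0.40 (SE 0.0603, adjusted p = 0.0190). The call was lost without CicKO 1 (0.0546), CicKO 2 (0.0624), CicKO 4 (0.0814), control 1 (0.101) or control 3 (0.0807), and with the unassigned-read covariate (0.217). With the covariate the log2 fold change was -0.34, and over all single omissions it lay between -0.42 and -0.37.

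Aldh1l1, a folate-metabolising enzyme used as a general astrocyte marker, was at 81.7, 88.0, 79.6 and 85.7 CPM in CicKO 1 to 4, against 95.5, 97.5 and 97.0 CPM in controls 1 to 3. The groups did not overlap, and it was not called with all libraries (log2 fold change -0.21, SE 0.0457, adjusted p = 0.0635), but was in DESeq2 (0.00424) and with library size only (0.0439). Ppp1r3c, a glycogen-targeting phosphatase subunit, had -0.07 (SE 0.0644, adjusted p = 0.667). Slco1c1, a thyroid hormone transporter also present in brain endothelium and choroid plexus, was at 31.7, 30.7, 79.3 and 35.2 CPM in CicKO 1 to 4 and 26.8, 27.2 and 54.5 CPM in controls 1 to 3. Library 3 was the high one in both groups, as for choroid plexus markers. Without CicKO 3 alone, which leaves control 3 in, the log2 fold change of Slco1c1 was -0.15 in place of 0.29. Without both CicKO 3 and control 3 it was 0.27 (adjusted p = 0.141), and with the replicate block 0.32 (adjusted p = 0.0774).

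**Figure D3:**
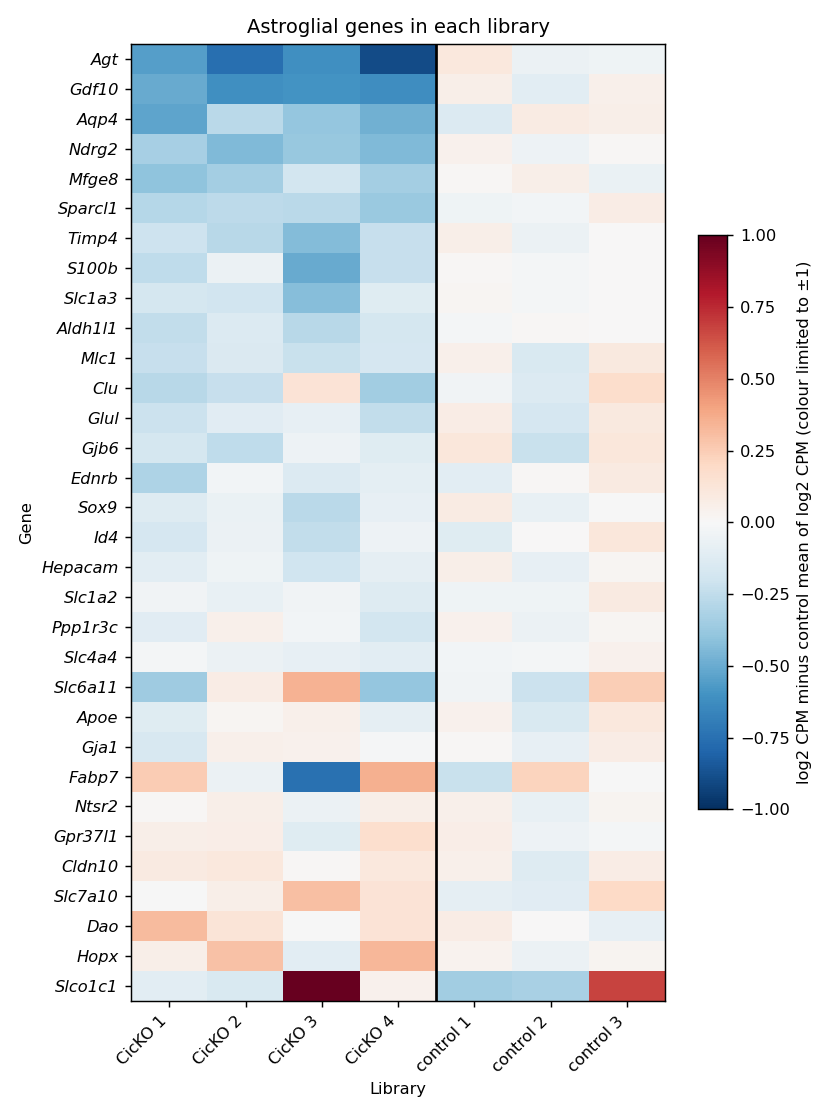
Log2 CPM of each astroglial gene (rows, ordered by fold change) in each library (columns, CicKO left of the line) minus the mean log2 CPM of the controls, blue for lower and red for higher. The top 5 rows are blue in all 4 CicKO libraries, and Slco1c1 in the last row is red in CicKO 3 and control 3.

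The summed level of the 32 genes was lower in CicKO. It came to 11645, 11962, 11701 and 11531 CPM in CicKO 1 to 4, against 13397, 12810 and 13916 CPM in controls 1 to 3. The sums did not overlap, and Sparcl1 and other abundant genes weigh most in them. The mean log2 CPM, in which each gene counts equally, was 7.36, 7.41, 7.39 and 7.38 in CicKO 1 to 4, against 7.52, 7.46 and 7.60 in controls 1 to 3. CicKO 3 and CicKO 4 were the lowest of all 7 libraries for 10 genes each, and control 3 was the highest for 10 and control 1 for 9. Within the controls, control 2 was lowest for 21 of the 32. Control 2 also had the highest share of unassigned reads among controls, 18.6%, against 16.0% and 16.5% in controls 1 and 3. Whether this share bears on the astroglial levels was not tested.

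Levels were also set against the other astroglial genes of the same library. The ratio of a gene to the mean of the other 31, on the log2 scale, was lower in every CicKO library than in every control for 5 genes and higher for 4, beside 1.72% and 21.6% of the 16873 tested genes with a count in every library, set against the mean of the 32. For Agt this ratio was -1.62 ± 0.17 in CicKO and -1.03 ± 0.12 in controls, and for Gdf10 it was -0.12 ± 0.07 and 0.34 ± 0.06 (SD, n = 4 and 3). Aqp4, Ndrg2 and Sparcl1 were the other 3 that lay lower, by 0.28, 0.27 and 0.16 on the log2 scale between group means. Dao, Slc7a10, Cldn10 and Ntsr2 lay higher, with differences of 0.29, 0.27, 0.23 and 0.16. The mean of the 32 was itself lower in CicKO, so a gene that changes little lies higher in this ratio. Their own log2 fold changes were 0.15, 0.12, 0.08 and 0.02, none of them called. No test was made of these ratios.

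Per exon length the 32 genes covered a wide range of levels in both groups. In RPKM, which is CPM divided by the summed exon length in kilobases, Sparcl1 was at 685 ± 23.0 in CicKO and 842 ± 37.2 in controls, and Apoe at 526 ± 30.2 and 540 ± 49.5 RPKM. Sox9 was lowest in CicKO at 6.50 ± 0.405 RPKM, against 7.14 ± 0.396 RPKM in controls, and Slco1c1 was lowest in controls. Gdf10 ranked 19 among the 32 in CicKO and 15 in controls, and Agt 18 and 14, while Sparcl1, Apoe and S100b held ranks 1 to 3 in both groups.

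A second list held 32 further astroglial genes. Their summed level was 6483 to 6773 CPM in CicKO and 6765 to 7266 CPM in controls, so these sums overlapped between groups. Of these 32 genes, 1 was called lower (Pla2g7) and 0 higher, beside 0.828% and 1.25% of all genes. At an unadjusted p below 0.05 in edgeR, 8 were lower and 4 higher, beside 8.16% and 8.06% of all genes. Every CicKO library lay below every control library for 7 and above for 3, beside 8.36% and 7.06% of all genes. Their median log2 fold change was -0.04, and 19 had negative and 13 positive values. Among the 32 members 24 were negative and 8 positive, and 51.2% of all genes were negative. Pla2g7, a lipoprotein-associated phospholipase of astroglia, was at 304, 306, 290 and 289 CPM in CicKO 1 to 4, against 369, 375 and 401 CPM in controls 1 to 3. All CicKO libraries were below the controls (log2 fold change -0.36, SE 0.0520, adjusted p = 0.0148). The call was lost without CicKO 1 (0.0546), CicKO 4 (0.0658), control 1 (0.0526) or control 3 (0.0677), and with the unassigned-read covariate (0.171). Pla2g7 had a log2 fold change of -0.33 with the covariate and between -0.38 and -0.32 over all single omissions.

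The genes with the next smallest p in this second list were not called and ran in both directions. Wif1, a secreted inhibitor of WNT signalling, was low in all libraries, at 0.482, 0.539, 1.66 and 0.466 CPM in CicKO 1 to 4, against 3.58, 3.05 and 4.996 CPM in controls 1 to 3. CicKO 3 was the highest of its group, and the groups did not overlap. Its log2 fold change was -2.29 (SE 0.483, adjusted p = 0.0636), and it passed without CicKO 3 (-2.97, adjusted p = 0.000495), without both CicKO 3 and control 3 (-2.74, adjusted p = 0.000979), with the replicate block (0.00650) and in DESeq2 (9.93e-06). Ppap2b (the symbol in the files for Plpp3, a lipid phosphatase) had -0.21 (SE 0.0511, adjusted p = 0.0816) and the gliogenic factor Nfia -0.25 (SE 0.0601, adjusted p = 0.0846). The brain proteoglycan Bcan had 0.21 (SE 0.0539, adjusted p = 0.0993), with every CicKO library above every control. Ppap2b passed with library size only (0.0453), Nfia without control 2 (0.0305), Bcan without CicKO 3 (0.0349), and all of them in DESeq2 (0.00448, 0.0142 and 0.00635).

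**Figure D4:**
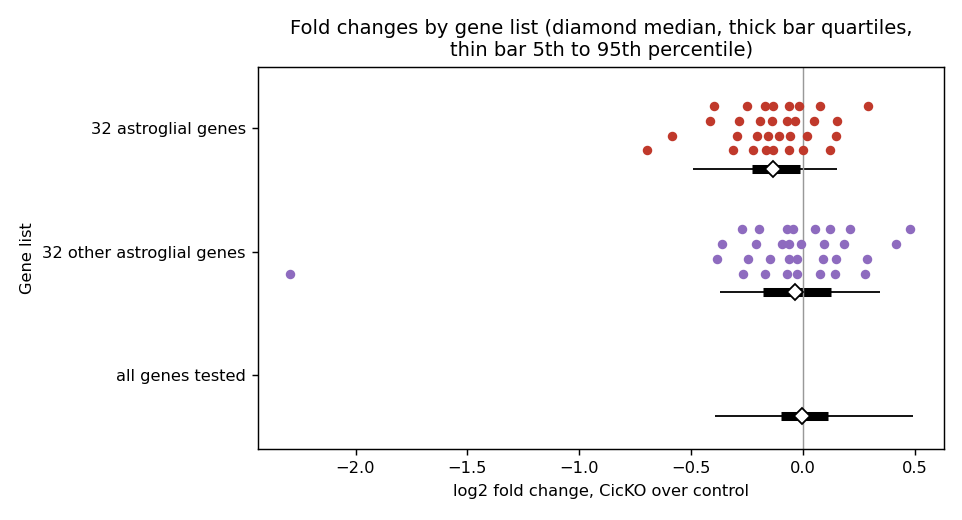
Log2 fold changes (CicKO over control) of the 32 astroglial genes, the 32 other astroglial genes and all 16905 genes tested, with diamonds for medians (-0.13, -0.04 and -0.00441), thick bars for quartiles and thin bars for the 5th to 95th percentile. The farthest point left in the second list, at -2.29, is Wif1.

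Markers of other cell types varied beside the astroglial genes. The 10 oligodendrocyte markers all had negative log2 fold changes (median -0.33), with Cldn11 called lower, and summed to 3868 to 6098 CPM in CicKO and 5174 to 6507 CPM in controls. Of 10 precursor markers Olig1 was called lower (median -0.15), and of 10 inhibitory interneuron markers Gad2 (median -0.02). None of the 10 markers each of Purkinje cells, granule neurons, microglia, vessels, choroid plexus and ependyma was called, with medians of 0.17, -0.01, 0.04, 0.20, 0.18 and -0.19. Of all genes, 0.828% were called lower and 1.25% higher. No marker of these lists was at 0 in all libraries, and the part of cell composition in the astroglial values was not tested.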

How the data were processed

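Raw counts per gene symbol were deposited, 1 file per library, with no normalization by the authors. The submitters' processing notes name STAR 2.5.3a, HTSeq, DESeq2 and build mm10; annotation, strand setting and read filters were not stated there. Per the labels' protocols, cDNA was amplified from poly(A) and random primers. The 5 HTSeq summary rows stayed out of library sizes and tests. Unassigned reads were 16.0% to 19.0% of entries, ambiguous ones 1.27% to 1.37% and multiply aligned ones 12.0% to 13.7%. A floor of 3 counts equals 0.0247 to 0.0292 CPM before TMM factors, for counting error only, since amplified reads are not independent molecules.

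Counts were filtered with filterByExpr, scaled by TMM and tested in edgeR 4.0.16 (R 4.3.3) with robust quasi-likelihood F tests. Genotype was the sole model term, and p-values were adjusted by Benjamini-Hochberg over all genes tested. SE was derived from the fold change and the F statistic. All adjusted p-values are from edgeR unless DESeq2 1.42.0 is named. The fit was tested on simulated data. RPKM used exon lengths of GENCODE M21 (GRCm38, the assembly called mm10), the source of coordinates. Of the 32 genes, 7 share exonic bases with another annotated gene and 25, including the 5 called, do not. Glul, Slc7a10, Id4 and Timp4 overlap a gene in the count files, so with strand unknown their levels are less certain.

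Replicate numbers 1 to 3 occur in both groups. Across genes, same-numbered libraries deviated together, with correlations of 0.145, 0.288 and 0.713, above the limit of 0.1 for pairing. That limit was also exceeded by CicKO 1 with control 2 (0.319), and by CicKO 4, which has no partner, with control 2 (0.297) and control 1 (0.187). The correlations therefore do not set the same-numbered libraries 1 and 2 apart from other pairs. Each gene was centred on its group mean, so libraries that deviate opposite to library 3 in both groups also correlate with each other. CicKO 3 and control 3, the pair at 0.713, were the libraries high in choroid plexus markers. The part of those transcripts in the correlations was not tested. The pairing rests on these correlations, not on a stated litter or batch, and a fit with the number as a block was an alternative. The spread between replicates was 18.5 to 157 times sampling variance, so each library counted once. Other alternatives were DESeq2, other scalings, no filter, the unassigned-read covariate and omitted libraries. All members were described, and those with no overlap or a call were given library by library. From the second list, called genes and the 4 next smallest p-values were named. Members and lists were chosen with earlier results of these data known. Promoter sequences are from RefSeq.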

Additional observations from a re-analysis of the deposited data

Results flagged for a closer look

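The 32 members and Cic were each examined within the 4 CicKO libraries. Of these, 2 genes had 1 library far from the rest, judged by its gap to the nearest value over the group's range. Chance alone marks about 1 in 20 such groups, and the share marked here was near that. Cldn10 was at 29.9 CPM in CicKO 3, against 31.6 to 31.9 CPM in the other CicKO libraries, a small difference in level. Slco1c1 was at 79.3 CPM in CicKO 3, against 30.7 to 35.2 CPM in the other CicKO libraries, and choroid plexus markers summed to 8602 CPM in that library; their part in the Slco1c1 value was not tested.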

How the results depend on the processing

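With 4 CicKO and 3 control libraries the count of calls depends on single libraries. Members called lower numbered 8 in DESeq2 and 1 (Gdf10) with the unassigned-read covariate, and 2 to 7 when 1 library was left out; without CicKO 3 and control 3 together they numbered 4, and with the replicate block 5, where Timp4 passed and Mfge8 did not. No other member's call differed between the block fit and the fit to all libraries. The block fit also lacks CicKO 4; without CicKO 4 and with no block only Agt and Gdf10 were called, so on those libraries the block added Aqp4, Ndrg2 and Timp4. Over all genes, 140 were called lower and 212 higher; DESeq2 called 497 and 673, the covariate left 12 and 46, and leaving out 1 library gave 21 to 349 lower and 65 to 493 higher. The cause was not tested. Of the 32 members 25 kept their sign under every alternative run, and 7, none of them called, did not. Slc6a11 turned to 0.0230 with the replicate block and 0.0519 with the covariate, and ran from -0.22 to 0.0725 when 1 library was left out. Fabp7 turned to -0.00645 with library size only, -0.00443 without a filter, -0.18 with the block and -0.13 with the covariate, and ran from -0.14 to 0.18 over single omissions. Gja1 (0.0304), Gjb6 (0.0318) and Apoe (0.0854) turned with the covariate. Over omissions of 1 library, or of CicKO 3 with control 3, Gja1 ran from -0.0597 to 0.0240, Apoe from -0.11 to 0.0166, Ntsr2 from -0.0193 to 0.0539 and Slco1c1 from -0.15 to 0.71.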
